A study of Mus musculus with 33 samples.

Results

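C1qa, C1qb and C1qc encode the A, B and C chains of complement C1q, and the 3 genes are described here across every cell cluster, tissue and biotin sort of a mouse single-cell RNA-seq study. They were chosen by name and make up 3 of the 32285 genes counted in every cell. C1q is the recognition part of the first component of the classical complement pathway: it binds antibody in immune complexes, dying cells and other surfaces, and with the proteases C1r and C1s starts the cascade that cleaves C4 and C2 and then C3. A stalk of collagen-like sequence and a globular head are found in each chain, and a subunit of the protein holds all of the chains. Unlike most complement proteins, which the liver parenchyma secretes, C1q is known to be made mainly by tissue macrophages, microglia and some dendritic cells, where it is a widely used marker; in the brain it is also known for tagging synapses.

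The study tagged cells by SAMENT, a method in which an enzyme carried by tumour cells puts biotin on neighbouring cells after a substrate is given overnight, and each tissue was sorted by biotin into a positive and a negative fraction. The first experiment held 32 samples from mice with an intracardiac injection, 4 replicates of 8 groups, that is both sorts of bone (femurs and tibias), brain, liver and lung. The second held bone from an injection that the labels call iia, given here as IIA, in 1 pooled matrix of 12 hashtagged samples, 6 injections with both sorts of each. Both sorts of a tissue come from tumour-injected animals, so the biotin negative cells are untagged cells of the same tissue and not cells of a healthy animal. No source used here gives the strain, age or sex of the mice or the tumour line, and neither do the labels say whether replicates are separate animals, so p-values measure the spread between these samples, which may be technical.

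After filtering, 55366 intracardiac and 22362 IIA cells were kept, with 482617 to 44834664 UMIs per intracardiac sample and 2149784 to 27903856 per IIA sample. A UMI (unique molecular identifier) stands for 1 captured transcript, and levels are given in CPM, the usual scaling of a gene's UMIs by the total of the sample or cluster. The intracardiac cells held 125138 UMIs of C1qa, 99837 of C1qb and 73028 of C1qc, and the IIA cells held 6374, 7316 and 6791. The 4 intracardiac replicate numbers correspond to 4 multiplexed pools of 8 samples. Pool 2 stood apart: its neutrophils, which should lack C1q, carried 59.1 to 118 CPM of C1q in the 7 samples with enough of them, against 4.75 to 48.3 in the other pools. Kept barcodes recurred 325 times between samples of different pools and 0 times between samples of the same pool. The biotin comparisons over all cells, the shares of C1q cells and the sources of C1q UMIs are therefore also given without pool 2, a choice made after the data had been seen.

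All 3 genes lie side by side on the minus strand of chromosome 4 (GRCm38, GENCODE vM21), C1qb (ENSMUSG00000036905) at chr4:136880129-136886187, C1qc (ENSMUSG00000036896) at chr4:136889804-136893065 and C1qa (ENSMUSG00000036887) at chr4:136895917-136898803. The gaps between neighbours are 3616 and 2851 bases, and the whole cluster spans 18675 bases. Because the members move together in nearly every comparison below, the sequence just upstream of a gene start is shown where RefSeq's GRCm38.p6 promoter table held it, which was for C1qb (chr4:136886201-136886450, minus strand) and C1qc (chr4:136893066-136893164, minus strand), read 5′ to 3′ along the gene. Capitals mark matches to GAGGAA, a core motif of the myeloid factor PU.1, on either strand.
C1qb: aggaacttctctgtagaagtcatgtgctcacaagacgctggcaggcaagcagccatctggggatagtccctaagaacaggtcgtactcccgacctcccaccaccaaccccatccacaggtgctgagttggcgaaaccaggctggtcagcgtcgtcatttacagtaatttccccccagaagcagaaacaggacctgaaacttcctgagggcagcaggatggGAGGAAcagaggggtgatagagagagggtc
C1qc: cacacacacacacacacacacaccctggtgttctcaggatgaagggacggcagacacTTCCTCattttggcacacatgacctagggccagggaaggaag
Both windows held 1 copy of the PU.1 core, on the gene's strand in C1qb and on the opposite strand in C1qc. Of 32851 promoter windows of the same length, 23.3% at 250 bases and 9.91% at 99 bases held that motif on some strand. Neither the AP-1 motif TGACTCA, held by 4.46% of windows of 250 bases, nor TATAAA, held by 12.4%, was found in the C1qb window. These matches describe the letters in the windows and show no binding.

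In CPM, C1q was highest in microglia-like and macrophage-like clusters. Cells were clustered with the 3 genes left out of the variable genes, and clusters were named from marker lists that hold none of them, so a cluster name stands for resemblance only. Microglia-like cluster 37, with Gpr34 and Tmem119 among its leading genes, had 21545 CPM of C1qa, C1qb and C1qc together (18496 to 22685 over 5 samples with at least 10 such cells). Macrophage-like cluster 35, led by Ccl12 and Ptgds with Lyve1 and Cd163 and found mainly in brain, had 14632 CPM (13068 to 16332 over 7 samples). Macrophage-like cluster 19, led by the Kupffer cell genes Cd5l, Clec4f and Vsig4 and found mainly in liver, had 12228 CPM (9633 to 14586 over 5 samples). Macrophage-like cluster 23, led by Vcam1, Ccr3, Itgad and Spic and found mainly in bone, had 10458 CPM (602 to 13542 over 6 samples, with a median of 4137). The sample ranges of the microglia-like cluster and of cluster 35 did not overlap, while those of clusters 35, 19 and 23 did. Cluster 23 had the widest range, and its cells were shallow, with a median of 1369 UMIs.

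A middle group followed at lower levels, with sample ranges that overlapped that of cluster 23. The unnamed intracardiac cluster 18, with Pf4 and Spp1 among its leading genes, held 7 macrophage markers among its 100 leading genes but 2 platelet genes and none of the macrophage list among its first 10, so it kept no name. It had 2633 CPM (605 to 4981 over 17 samples). Summed over its cells, it held 16.6% of the intracardiac C1q UMIs, beside 16.5% in cluster 35 and 5.44% in cluster 23. Cluster 17, conventional dendritic cell-like and led by H2-Eb1, H2-Ab1 and Cd209a, had 2261 CPM (15.5 to 7573 over 27 samples). Monocyte-like cluster 16, led by Ace and Adgre4, had 705 CPM (0 to 5123 over 22 samples). The other monocyte-like clusters were far lower, such as cluster 2, led by Saa3 and Vcan, at 69.2 CPM. In the IIA bone samples macrophage-like cluster 22, led by Vcam1 and Cd5l, had 6075 CPM (4442 to 8636 over 4 samples), macrophage-like cluster 0, with Pf4 and Hmox1 among its leading genes, had 2314 CPM (4.44 to 6287 over 11 samples), and monocyte-like cluster 1, led by Adgre4 and Ace, had 1232 CPM (0 to 5646 over 9 samples). These levels describe clusters and were not tested against each other, since cells of a cluster are not replicates.

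Within clusters 37 and 35 of brain and cluster 19 of liver, C1qa stayed in a narrow range from sample to sample. In microglia-like cluster 37 of the intracardiac brain samples, C1qa stood at 7744, 8847, 7449.6 and 9508 CPM in positive replicates 1 to 4 and at 8878 in negative replicate 4, the only negative sample with at least 10 such cells. In cluster 35 it stood at 6679.5, 5910.1, 6012 and 6440.4 in the positive and 7059.6, 6022 and 6443 in negative replicates 2, 3 and 4. In the Cd5l-led cluster 19 of liver it stood at 4663, 5682 and 4334 in positive replicates 1 to 3 and 6340.1 and 4082 in negative replicates 2 and 3. The sorts overlapped in each of these clusters. The Vcam1-led cluster 23 of bone differed more, with C1qa at 2996, 6946 and 949 in positive replicates 1 to 3, highest in replicate 2 of pool 2.

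The clusters of the middle group varied with tissue and sort. In cluster 18 of the intracardiac lung, C1qa stood at 899, 1449, 911 and 1494 CPM in positive and 583, 747, 580.5 and 261 in negative replicates 1 to 4. The sorts did not overlap for C1qa and C1qb, as for 5.95% of genes with at least 10 UMIs in that cluster, and overlapped for C1qc. In liver it stood at 1559.6, 1626 and 338 in positive replicates 1 to 3 and 1043, 334, 142 and 235 in the negative ones, with overlap, and in bone at 1066 and 923 in positive replicates 1 and 2. In the dendritic cell-like cluster 17, C1qa stood at 1878, 2367 and 3162 in positive brain replicates 1 to 3 and 573, 1279, 1639 and 1466 in negative brain. There too C1qa and C1qb did not overlap, which held for 3.3% of genes, and C1qc did. In lung it stood at 396, 1067, 973 and 2451 in the positive and 182, 229, 206 and 535 in the negative samples, which overlapped. In bone it stood at 1625 and 1527 in positive replicates 1 and 2 and at 11.1, 388, 586 and 10.7 in the negative samples, of which replicates 1 and 4 were far below the other two.

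Alveolar macrophages were the exception among the macrophage classes. Alveolar macrophage-like cluster 31, led by Plet1, Ear1 and Krt79, held 3795 intracardiac cells, but only 79.9 CPM of C1q. In the 4 biotin positive lung samples it carried 28.7, 104, 21.6 and 4.90 CPM of C1q for replicates 1 to 4, while neutrophils of the same samples carried 18.8, 84.4, 12.3 and 6.73. Both were highest in replicate 2 and lowest in replicate 4, and at these levels the C1q of alveolar macrophages in the positive lung could not be told apart from background RNA. The cluster had at least 10 cells in 2 other samples. In lung negative replicate 2, of pool 2, its 21 cells carried 393 CPM (80 UMIs), above the 95.5 of neutrophils of that sample, and in liver positive replicate 1 its 15 cells carried 18.5 beside 19.3 in neutrophils.

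**Figure D1:**
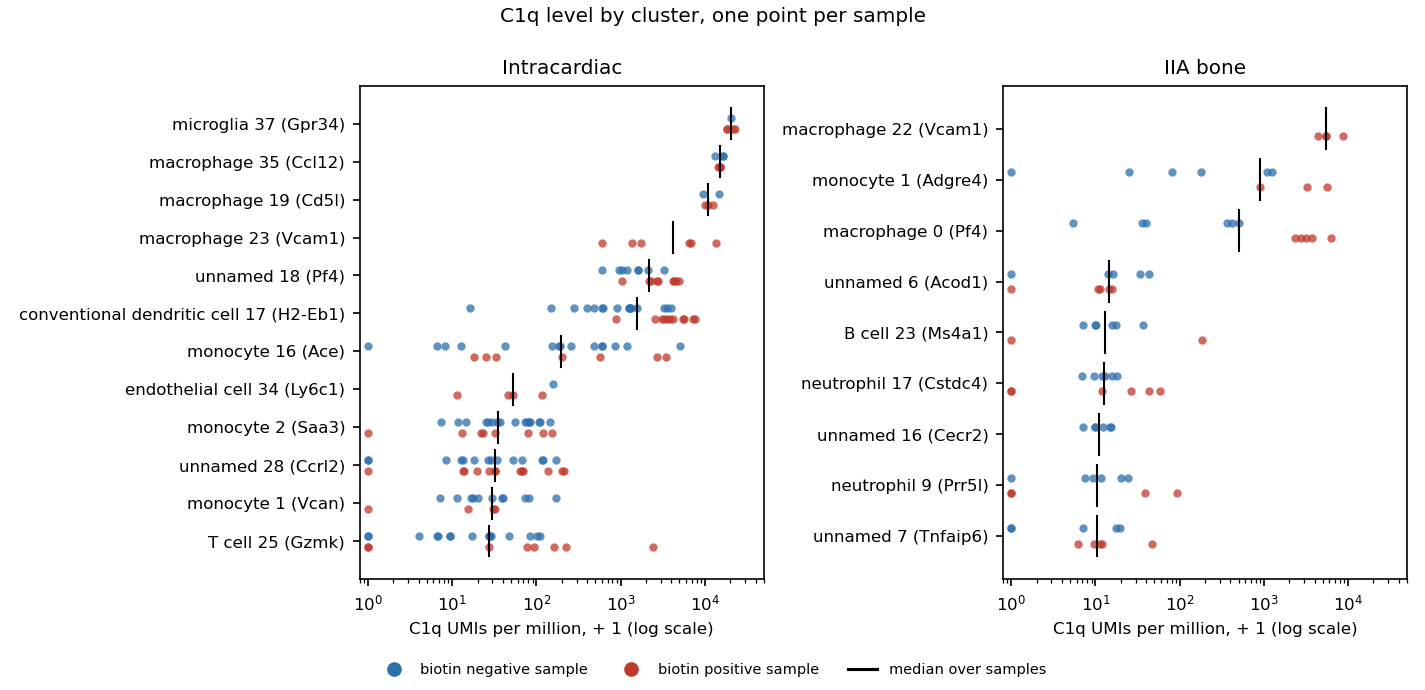
C1q level by cluster, as CPM of C1qa, C1qb and C1qc together plus 1 on a log axis, in the intracardiac samples (left) and IIA bone (right), for the clusters with the highest medians. Each point is a sample with at least 10 cells of the cluster, blue for biotin negative and red for positive, and bars are medians over samples. Microglia-like cluster 37 and macrophage-like clusters 35 and 19 lie highest with narrow ranges, clusters 17 and 18 spread widely, and the positive and negative samples of IIA cluster 0 lie apart.

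The clusters differed in whether all or only some of their cells carried C1q. To compare cells at 1 depth, cells were thinned to 2000 UMIs, shallower cells were left out, and a C1q cell was one with at least 2 remaining UMIs of the 3 genes together. By this measure 100% of cells of cluster 35 were C1q cells, as were 99.8% in clusters 37 and 19 and 93.3% in cluster 23, with medians over all thinned cells of 29, 42, 24 and 24 UMIs for clusters 35, 37, 19 and 23. In cluster 18 the share was 41.2%, with 50.4% of cells at 0 UMIs and 16.6% at 10 or more. The dendritic cell-like cluster 17 was split more sharply, with 29.6% C1q cells, 65.8% of cells at 0 and 23.1% at 10 or more, and its C1q cells had a median of 20 UMIs. The IIA cluster 0 was split like cluster 18, with 42.7% C1q cells, 51.9% at 0 and 18.5% at 10 or more. Thinned neutrophils held a mean share of at most 0.911% C1q cells in any of the 8 intracardiac groups. In a separate thinning, T cells had mean shares of 16.2% in positive liver (5 of 40 cells), 7.85% in positive brain and 3.30% in positive bone. Their share was at most 0.806% in the other intracardiac groups. No doublets were removed, and the part of mixed droplets in the split clusters was not tested.

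What cluster 17 held depended on the clustering. When the C1q genes were left among the variable genes, an alternative added after the data had been seen, the dendritic cell-like cluster had 1276 cells in place of 1774, and 6.59% of its thinned cells were C1q cells. In that clustering 381 C1q cells of cluster 17 lay in the Ccl12-led macrophage-like cluster, which grew from 852 to 1314 cells with 98.8% C1q cells. The level and the split given for cluster 17 therefore hold for the clustering without the C1q genes. Cluster 18 changed little, with 1673 of its 1717 cells together in a cluster of 41.7% C1q cells, and the counterpart of IIA cluster 0 had 43.1%. The IIA monocyte-like cluster 1 had 17.7% C1q cells, but with the C1q genes the cluster led by Ace and Adgre4 had 0.993%. A macrophage-like IIA cluster led by Negr1 and Cd5l then had 91.4%. The level given for IIA cluster 1 therefore also holds only for the clustering without the C1q genes.

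The question of the design was which cells lie next to tumour cells, and for C1q the first comparison was biotin positive against negative over all kept cells of a tissue. C1q rose in the biotin positive sort of brain and lung and in IIA bone, while bone and liver of the intracardiac experiment missed the threshold. Levels are CPM of a sample's kept cells, each gene compared only with itself, because 3′ and 5′ tags are not scaled to length. In such sums over cells, more C1q cells and more C1q transcripts per cell cannot be told apart.

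In brain, C1qa stood at 1117, 4839, 2709 and 4132 in the biotin positive samples and 30.6, 325, 269 and 79.5 in the negative samples, replicates 1 to 4 in order. C1qb stood at 812, 3939.6, 2470.1 and 3498 in the biotin positive samples and 29.6, 296, 244 and 71.1 in the negative samples, and C1qc at 627, 2915, 1537 and 2228 in the biotin positive samples and 13.8, 185, 141 and 40.4 in the negative samples. All positive samples lay above all negative samples for each of the 3 genes. The edgeR quasi-likelihood test gave log2 fold changes of 3.85 (SE 0.79, adjusted p = 0.0375) for C1qa, 3.73 (SE 0.79, adjusted p = 0.0428) for C1qb and 3.93 (SE 0.84, adjusted p = 0.0429) for C1qc, with 4 samples against 4. Of 11064 genes tested in brain, 3.06% were called and 2.88% were called higher, and 12.8% of genes with at least 10 UMIs had all positive samples above all negative ones. The calls were close to the threshold: none of the 3 genes was called without pool 2 (log2 fold changes 4.15, 4.06 and 4.25; 2.53% of genes called), or when positive replicate 2, 3 or 4 (1.86%, 1.99% and 0.0617% of genes called) or negative replicate 1, 3 or 4 (0.0265%, 0.538% and 0.0526%) was left out.

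In lung the difference was smaller and the levels lower. C1qa stood at 248, 288, 83.3 and 424 in the biotin positive samples and 28.2, 92.6, 43.5 and 35.1 in the negative samples, C1qb at 240.2, 335, 100.2 and 488 in the biotin positive samples and 35.3, 90.6, 65.5 and 60.2 in the negative samples, and C1qc at 134, 189, 56.1 and 264 in the biotin positive samples and 14.3, 57.6, 28.1 and 22.5 in the negative samples. Positive replicate 3 was the lowest of its sort, and negative replicate 2, from pool 2, the highest of the other, so that the sorts did not overlap for C1qb (14.8% of genes) but overlapped for C1qa and C1qc. The log2 fold changes were 2.06 (SE 0.56, adjusted p = 0.0337), 1.91 (SE 0.49, adjusted p = 0.0275) and 2.07 (SE 0.57, adjusted p = 0.0358) for C1qa, C1qb and C1qc by edgeR. Here 18.3% of 12331 genes were called and 11.5% were called higher, so a call in lung is common. Without pool 2 all 3 remained called (2.69, 2.23 and 2.68; 13.7% of genes called). Without positive replicate 2 (10.7% of genes called) or negative replicate 1, 3 or 4 (10.2%, 12.4% and 10.1%) none was called, and without positive replicate 1 or 4 only 1 was, beside 11.2% and 18.9% of genes.

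In bone of the intracardiac experiment, the positive samples differed widely among themselves. C1qa stood at 191, 946, 6.45 and 6.05 in the biotin positive samples and 5.40, 30.8, 9.14 and 2.36 in the negative samples, C1qb at 157, 471, 4.98 and 3.72 in the biotin positive samples and 4.55, 24.4, 9.90 and 3.43 in the negative samples, and C1qc at 109.9, 494, 2.88 and 2.92 in the biotin positive samples and 3.03, 15.5, 5.25 and 1.36 in the negative samples. Positive replicates 1 and 2 were high, while positive replicates 3 and 4 lay within the range of the negative samples. The log2 fold changes were 4.25, 3.57 and 4.26 with SEs of 1.57, 1.40 and 1.56 and an adjusted p of 0.615 for each by edgeR. In bone edgeR called 0 of 12533 genes (0%), with 7.84% at an unadjusted p under 0.05, the 3 members among them, and DESeq2 called 53 genes (0.423%). Without pool 2 the log2 fold changes of C1qa, C1qb and C1qc were 3.40, 2.98 and 3.39, and they were 2.23, 2.10 and 2.34 without positive replicate 2 alone.

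In liver a single sample dominated. C1qa stood at 586, 4876, 375 and 2.07 in the biotin positive samples and 29.6, 164, 146 and 15.3 in the negative samples, C1qb at 538, 2887, 331 and 8.29 in the biotin positive samples and 34.3, 163, 177 and 23.3 in the negative samples, and C1qc at 354, 2987, 237 and 4.14 in the biotin positive samples and 15.7, 95.7, 100.4 and 10.6 in the negative samples. Positive replicate 2 was far above all others, whereas positive replicate 4, with 94 kept cells, lay below every negative sample. The log2 fold changes were 3.76, 2.96 and 3.73 with SEs of 1.49, 1.24 and 1.41, and the adjusted p values were 0.333, 0.350 and 0.316 by edgeR. In liver edgeR called 0 of 11854 genes (0%), with 13.3% at an unadjusted p under 0.05, and DESeq2 called 431 genes (3.64%). Without pool 2 the log2 fold changes were 2.16 for C1qa, 1.72 for C1qb and 2.07 for C1qc, and without positive replicate 2 alone 1.63, 1.33 and 1.63.

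Bone of the IIA experiment, with 6 samples per sort, gave the smallest adjusted p values over all cells. C1qa ranged over the positive samples from a lowest value of 25.5 through a median of 104 to a highest of 528, and over the negative samples from 2.27 through 3.30 to 16.4. C1qb ranged from 36.8 through 118 to 681 against 3.24 through 4.65 to 20.5. C1qc ranged from 29.5 through 104 to 572 against 1.12 through 3.39 to 17.6. Every positive sample lay above every negative one for all 3 genes. The log2 fold changes were 4.75 (SE 0.84, adjusted p = 0.000618) for C1qa, 4.42 (SE 0.83, adjusted p = 0.000901) for C1qb and 4.68 (SE 0.91, adjusted p = 0.00114) for C1qc by edgeR. These calls stand beside a high background, with 50.2% of 12625 genes called, 27% called higher, and 15.2% of genes with at least 10 UMIs not overlapping in this direction.

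**Figure D2:**
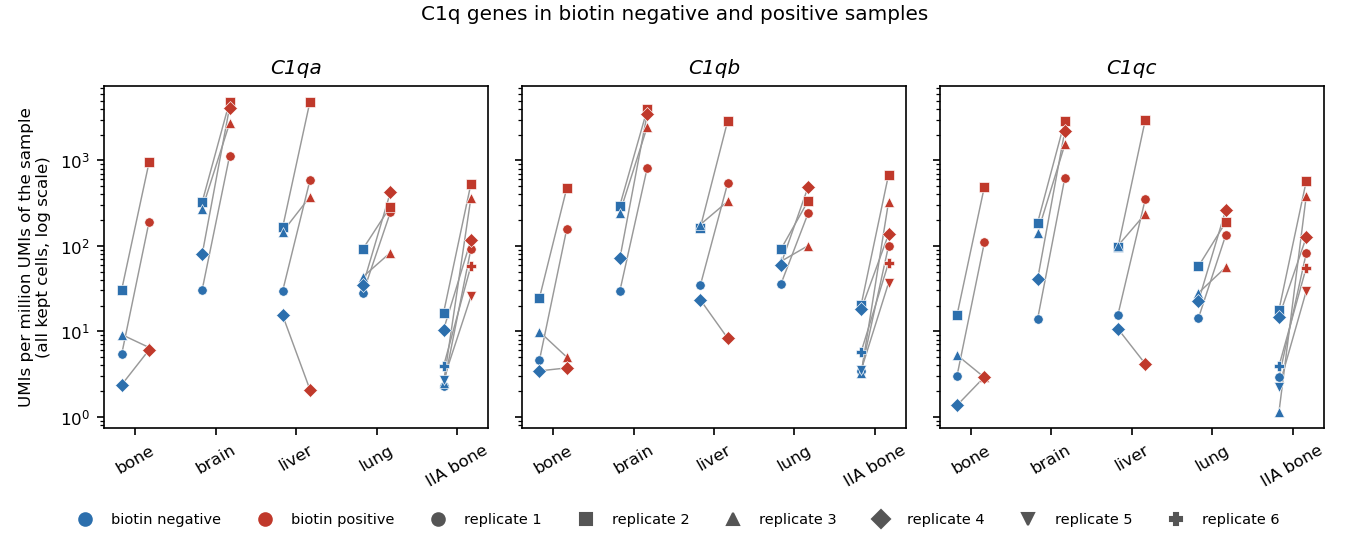
Level of C1qa, C1qb and C1qc in every sample, over all kept cells, in CPM on a log axis, by tissue and biotin sort. Each point is a sample. The sorts do not overlap in brain and IIA bone, while in intracardiac bone positive replicates 3 and 4 lie among the negative samples and in liver positive replicate 4 lies below them.

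The share of C1q cells among thinned cells was the second measure. It was 36.8, 85.0, 39.7 and 56.5 percent in the positive brain samples and 1.06, 10.1, 10.2 and 2.45 percent in the negative ones, a mean of 54.5% ± 22.1 against 5.97% ± 4.90 (SD, n = 4 each). In lung it was 6.76% ± 2.73 against 2.03% ± 1.36, in bone 9.40% ± 12.1 against 0.596% ± 0.607, and in liver 27.8% ± 37.4 against 3.50% ± 3.11. Without pool 2 the difference fell from 8.80 to 3.56 points in bone and from 24.3 to 6.36 in liver, and without positive replicate 2 alone it was 3.29 and 5.87 points, while brain and lung kept 39.7 and 4.70 points without pool 2. In IIA bone it was 15.7% ± 15.3 against 0.437% ± 0.492 (n = 6 each). The two-sided exact permutation test gave p = 0.0286 in brain, the smallest p that 4 against 4 allows, 0.0571 in lung, 0.143 in liver, 0.257 in bone and 0.00216 in IIA bone. After Benjamini-Hochberg adjustment over these 5 comparisons, IIA bone passed (adjusted exact p = 0.0108), and brain (0.0714) and lung (0.0952) did not. With the replicate number as a block, the IIA share was higher in 6 of 6 pairs, but sign flips over 6 pairs give at best p = 0.0312 and could not pass after adjustment (adjusted exact p = 0.156). Without thinning the mean shares were 56.4% against 7.88% in brain, 12.3% against 3.44% in lung, 16.3% against 3.78% in bone, 29.5% against 5.77% in liver and 14.9% against 0.492% in IIA bone. Shallow cells left out numbered 305 and 782 in brain, 410 and 1317 in lung, 597 and 977 in bone, 506 and 1545 in liver, and 1041 and 5042 in IIA bone, positive and negative in turn.

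Which clusters supplied the C1q transcripts differed by tissue and sort. In positive brain, microglia-like cluster 37 held 50.1% and macrophage-like cluster 35 held 44.6% of the group's C1q UMIs. In positive liver, the Cd5l-led cluster 19 held 85.6%, and in positive intracardiac bone the Vcam1-led cluster 23 held 59.2% and cluster 18 held 18.9%. In positive lung, 82.9% came from cluster 18, 8.90% from the dendritic cell-like cluster 17 and 5.44% from the alveolar macrophage-like clusters. In positive IIA bone, 83.3% came from cluster 0 and 9.18% from the Vcam1-led cluster 22.

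With all pools and the clustering without the C1q genes, the leading sources of the sorts differed in brain, liver and both bone experiments. Cluster 18 led in both sorts of lung. In negative brain the dendritic cell-like cluster 17 held 55.3% of C1q UMIs, with 17.5% and 15.7% in clusters 37 and 35. In negative liver the shares were 28.2% in cluster 17, 23.0% in cluster 19, 20.8% in cluster 18 and 16.2% in the monocyte-like clusters. In negative lung cluster 18 held 38.1%, and in negative IIA bone the monocyte-like clusters held 49.8%. In negative intracardiac bone, where all levels were low, 57.8% lay in the remaining clusters. These were outside the mononuclear phagocytes and clusters 17 and 18, and included neutrophils, plasmacytoid dendritic cells and unnamed clusters. Under the clustering with the C1q genes, the Ccl12-led macrophage-like cluster held 65.1% and the dendritic cell-like cluster 5.15% of C1q UMIs in negative brain, and 21.2% and 7.18% in negative liver. In positive lung these clusters held 8.27% and 0.446%. In negative IIA bone a macrophage-like cluster of 152 cells led by Negr1 and Cd5l then held 40.6% and the counterpart of cluster 0 held 26.4%. In negative liver the Cd5l-led cluster then led with 23.5%, as it did in positive liver with 85.6%. The leading source in negative brain, negative liver and negative IIA bone thus depends on the clustering. These shares pool the samples of a group, so a sample with many C1q UMIs weighs more. Replicate 2, from pool 2, held 82.4% of the C1q UMIs of positive liver with 33.5% of its cells, and 64.9% of those of positive bone with 22.6% of its cells. Without pool 2 the leading source of positive liver was cluster 17 with 42.5%, ahead of cluster 19 with 31.7% and cluster 18 with 19.9%, in the clustering without the C1q genes, and so the same as in negative liver. Positive bone then had 28.2% in cluster 23, 26.6% in cluster 18 and 23.4% in cluster 17. Positive brain had 75.1% in the microglia-like cluster and 20.7% in cluster 35. Positive lung had 82.3% in cluster 18, 12.5% in cluster 17 and 1.79% in the alveolar macrophage-like clusters. In the negative sorts without pool 2, cluster 17 held 50.4% in brain and 31.0% in liver, and cluster 18 held 45.8% in lung. In negative bone the same remaining clusters then held 47.2%.

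**Figure D3:**
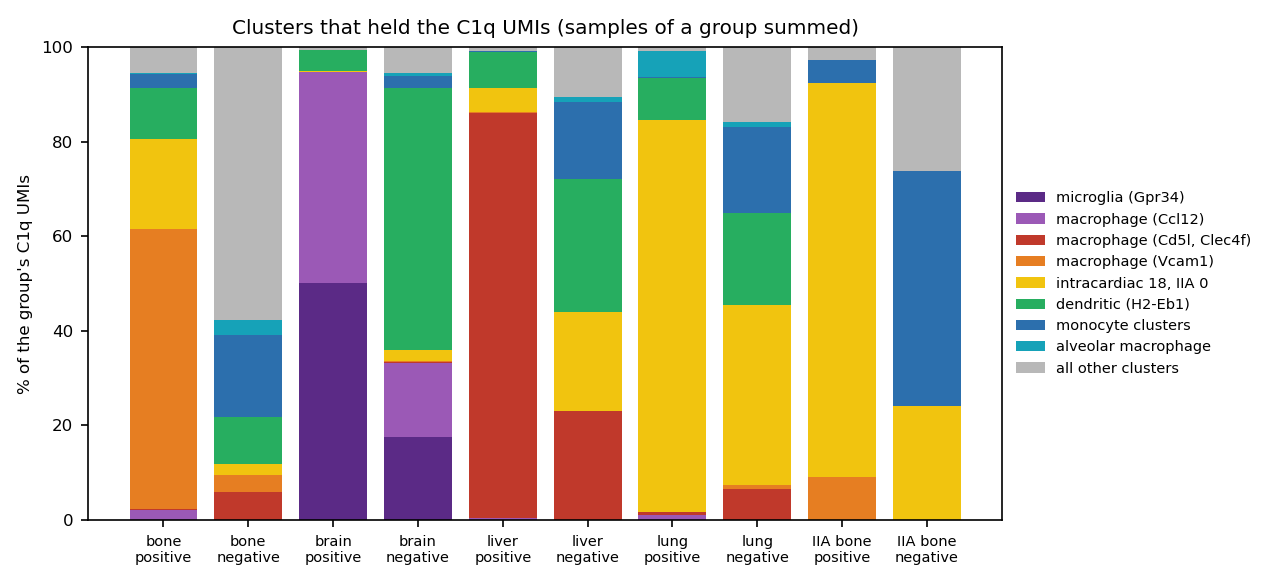
Where the C1q UMIs of each group came from, as the percent of the group's C1q UMIs in each cluster or set of clusters, with 1 bar per tissue and sort. Microglia-like cluster 37 and cluster 35 fill the positive brain bar, cluster 19 fills 85.6% of positive liver, most of it from replicate 2, intracardiac cluster 18 fills 82.9% of positive lung, and IIA cluster 0 fills 83.3% of positive IIA bone.

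Within mononuclear phagocytes, the sum of all monocyte, microglia and macrophage clusters including alveolar macrophages, C1q rose in biotin positive brain and IIA bone. The sum held macrophage-like cluster 0 in IIA bone but left out the unnamed intracardiac cluster 18, although both had Pf4 among their leading genes. Phagocyte values of the IIA and intracardiac experiments are therefore not like for like. Results with cluster 18 added are given below for lung and intracardiac bone. In brain, C1qa stood at 5075, 5802, 6124 and 8814 in the biotin positive samples and 43.1, 421, 201 and 471 in the negative samples. The log2 fold changes of C1qa, C1qb and C1qc were 4.19, 4.16 and 4.19 (SE 0.65, 0.61 and 0.61; adjusted p = 0.000996, 0.000810 and 0.000784 by edgeR), with 39.9% of 9131 genes called and 19.9% called higher. In IIA bone they were 5.33, 4.92 and 5.16 (SE 0.64, 0.64 and 0.70; adjusted p = 3.87e-05, 6.59e-05 and 9.64e-05), with 28.8% of 9513 genes called and 16.4% called higher. With clusters made with the C1q genes the brain values of C1qa, C1qb and C1qc fell to 3.04, 2.93 and 3.09 and stayed called (adjusted p = 0.00151, 0.00195 and 0.00186; 36.4% of genes called). In the main clustering the sorts did not overlap in either, which held for 24.3% of genes in brain and 3.83% in IIA bone.

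Bone and liver phagocytes of the intracardiac experiment had differences of like size that missed the threshold in the main fit. In bone, C1qa stood at 731, 4845, 220.3 and 156 in the biotin positive samples and 6.37, 54.9, 41.2 and 11.7 in the negative samples, with no overlap (5.11% of genes), and the log2 fold changes were 5.46, 3.99 and 4.99 (adjusted p = 0.0581, 0.0957 and 0.0642). The call rate there was 0.511% of 8213 genes, and with the replicate block C1qa (4.94, adjusted p = 0.0122) and C1qc (4.54, adjusted p = 0.0351) passed beside 1.13% of genes. Leaving out bone positive replicate 1, 2, 3 or 4 gave 1, 1, 3 and 2 called members, beside 1.32%, 0.389%, 3% and 1.6% of genes, and without pool 2 C1qa alone passed, beside 0.408% of genes. In liver, where positive replicate 4 had too few phagocytes, C1qa stood at 655, 5569 and 2860.0 in 3 positive samples and 16.4, 272, 231 and 67.0 in 4 negative ones. The log2 fold changes were 4.04, 3.47 and 4.04 (adjusted p = 0.0531, 0.0670 and 0.0616 by edgeR), with 3% of 9662 genes called. With the replicate block all 3 liver values passed (4.17 for C1qa, 3.55 for C1qb and 4.23 for C1qc; adjusted p = 0.00183, 0.00230 and 0.00324; 5.4% of genes called), as they did without positive replicate 1 (29.1% of genes called). With clusters made with the C1q genes, 2 members passed in bone (1.28% of genes called) and 3 in liver (4.77%).

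Lung phagocytes had log2 fold changes below 0, and 1 of the 3 members passed. C1qa in lung phagocytes stood at 28.8, 50.4, 10.2 and 1.65 in the biotin positive samples and 4.10, 116, 31.2 and 21.0 in the negative samples, and the log2 fold changes were -1.05 for C1qa (adjusted p = 0.317), -1.65 for C1qb (adjusted p = 0.0320) and -1.42 for C1qc (adjusted p = 0.165) by edgeR, with 47.1% of 9841 genes called and 22.7% called lower. Only C1qb fell, and it was not called when positive replicate 1, 3 or 4 (41.4%, 41.4% and 45.1% of genes called) or negative replicate 2 or 3 (44.3% and 40.9%) was left out. Under that other clustering, made with the C1q genes, the lung values of C1qa, C1qb and C1qc were 0.31, -0.03 and -0.06, with none called beside 46.8% of genes, so the fall of C1qb depends on the clustering. The positive lung phagocytes were mostly the alveolar macrophage-like cells, 1320, 1861, 444 and 96 of 1491, 1908, 538 and 145 cells, while 28 or fewer cells of any negative lung sample were in a macrophage class. With cluster 18 counted among phagocytes, a choice made after the data had been seen, the lung values turned to 1.62 (adjusted p = 0.0436), 1.30 (0.0682) and 1.51 (0.0569) for C1qa, C1qb and C1qc, with 37.3% of genes called. The biotin difference in lung phagocytes was lower than the mean of the other 3 tissues by -5.63, -5.54 and -5.86 (SE 1.26, 1.11 and 1.26; adjusted p = 0.00243, 0.000860 and 0.00172), a fit added after the data had been seen in which 14.2% of 11311 genes were called and 6.87% were called lower. It held without pool 2 (-4.67, -5.05 and -5.01; 11% of genes called) and, smaller, with clusters made with the C1q genes (-3.62, -3.26 and -3.87; adjusted p = 0.0134, 0.0203 and 0.00939; 14.3% of genes called). This contrast was not fitted with cluster 18 among the phagocytes, the choice that turned the lung values above 0. Over all kept cells the same contrast called 2.54% of 13963 genes in lung and none of the members (-1.83, -1.45 and -1.84; adjusted p = 0.594, 0.649 and 0.586). In brain phagocytes the contrast missed the threshold for C1qb (2.30, adjusted p = 0.144; 11.3% of genes called) and passed it with the replicate block (2.38, adjusted p = 0.0440; 17.3% of genes called).

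Within monocytes alone of the 4 intracardiac tissues, and within macrophages alone of brain and liver, no difference passed edgeR's test in the fits with the filter on low counts and no block. In monocyte clusters alone edgeR called 0 genes in each tissue (6.67%, 6.06%, 2.74% and 6.66% at an unadjusted p under 0.05 in bone, brain, liver and lung), with C1qa at 2.46, -0.97, 0.59 and -1.19 in turn, and DESeq2 called 1 (0.0128%), 1 (0.0124%), 0 (0%) and 29 (0.367%) genes. With the replicate block C1qc in liver monocytes (1.15, adjusted p = 0.00488) and C1qb in lung monocytes (-1.32, adjusted p = 0.0268) passed, where the blocked fits called 0.534% of genes in liver and 3.41% in lung. In fits with no block, the sign of C1qc in liver monocytes changed under leave-one-out, as given below. Without the filter 2 members were called in bone monocytes and 1 in lung monocytes, beside 0.306% and 0.448% of genes. In macrophage classes alone the brain values were 0.16, 0.20 and 0.19 (SE 0.22, 0.25 and 0.22, 4 samples against 3, 0 of 5974 genes called) for C1qa, C1qb and C1qc. The liver values were 0.06, -0.15 and 0.15 (SE 0.34, 0.32 and 0.33, 3 against 2). With clusters made with the C1q genes the brain values of C1qa, C1qb and C1qc were 0.34, 0.24 and 0.45 (4 against 4; adjusted p = 0.680, 0.809 and 0.514), still under the threshold. The lung values, -4.99, -4.63 and -5.31, rest on 1 negative sample, replicate 2 of pool 2 with 28 cells, and are given as a description. Per macrophage, C1qa in positive brain samples stood at 6844, 5966, 7219 and 9131, and in negative replicates 2, 3 and 4 at 6496, 5316 and 7768, which overlapped. The macrophage classes made up 201, 542, 94 and 375 cells of the positive brain samples and 6, 27, 19 and 39 of the negative ones.

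In IIA bone both parts were higher in the positive sort in the main clustering. Its macrophage classes without monocytes had log2 fold changes of 4.07, 3.85 and 4.57 (5 samples against 6; SE 0.66, 0.63 and 0.67; adjusted p = 0.00042, 0.000427 and 0.00022), and its monocytes 4.37, 3.98 and 4.00 (4 against 6; adjusted p = 0.0367, 0.0374 and 0.0374) for C1qa, C1qb and C1qc, both fits added after the data had been seen. These fits called 25.8% of 5923 and 0.533% of 8810 genes. Neither set of calls held fully with clusters made with the C1q genes. There the macrophage classes had 2.97, 2.39 and 2.62 for C1qa, C1qb and C1qc (6 against 6; adjusted p = 0.0213, 0.0621 and 0.0508), with C1qa alone called beside 20.6% of genes. In the monocytes (3 against 6) no member passed the filter on low counts there. In cluster 0, C1qa of the iia samples stood at 755, 937, 934, 1100.2 and 2131 in positive injections 1, 2, 3, 5 and 6 and at 7.01, 128, 0, 173, 13.9 and 126 in the 6 negative ones. The sorts did not overlap for any member, which held for 4.35% of genes with at least 10 UMIs in that cluster.

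**Figure D4:**
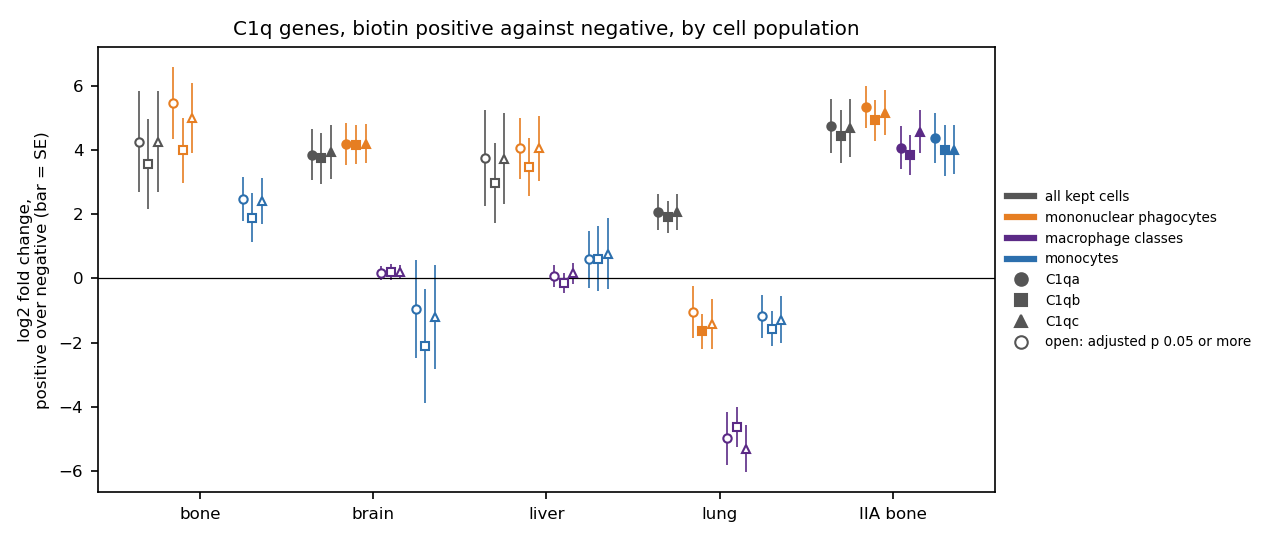
Log2 fold change of C1qa, C1qb and C1qc, biotin positive over negative, with its standard error, for all kept cells, mononuclear phagocytes, macrophage classes and monocytes by tissue; filled symbols have an adjusted p under 0.05. The values over all cells and over phagocytes lie above 0 in bone, brain, liver and IIA bone, the macrophage classes of brain and liver lie near 0, and lung phagocytes lie below 0. IIA phagocytes include cluster 0, while intracardiac phagocytes leave out cluster 18.

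In the clusters that were split into cells with and without C1q, the share of C1q cells was compared within 1 cluster, 6 tests in all, added after the data had been seen. In cluster 18 of lung, C1q cells made up 53.3% ± 9.20 of positive and 27.8% ± 4.59 of negative samples (SD, n = 4 each), without overlap (exact permutation p = 0.0286, the smallest possible, adjusted 0.0571). In the dendritic cell-like cluster 17 of lung, the share was 32.3% ± 13.4 against 10.1% ± 1.46 (exact p = 0.0286, adjusted 0.0571), again without overlap. In IIA cluster 0 it was 67.8% ± 11.3 in 5 positive samples and 6.02% ± 6.20 in 6 negative ones (exact p = 0.00433, the smallest possible, adjusted 0.0260). It was higher in 5 of 5 pairs, for which sign flips with the replicate block cannot go below p = 0.0625 (adjusted exact p = 0.125). Without any 1 of its positive samples the adjusted exact p was 0.0571, the smallest that 4 against 6 allows here. The 3 other tests, each of 3 positive against 4 negative samples, could not go below an exact p of 0.0571 and so could not pass. The share was 45.6% against 28.9% in cluster 18 of liver (exact p = 0.229), 61.0% against 43.3% in cluster 17 of brain (exact p = 0.286) and, in the opposite direction, 0.595% against 3.37% in monocyte-like cluster 16 of lung (exact p = 0.229, higher in 1 of 3 pairs). The cluster 17 shares depend on the clustering, as given above. Without pool 2 the differences in lung were 21.6 points in cluster 18 and 18.2 in cluster 17, against 25.5 and 22.2 points with it, and in liver cluster 18 and brain cluster 17 they were 11.3 and 21.8 points. The 6 samples or fewer left in each cannot pass an exact test. The C1q cells of lung cluster 18 had medians of 7 to 10 UMIs in positive and 4 to 9 in negative samples.

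Between tissues, the macrophage, microglia and alveolar macrophage classes of the positive samples were compared in 1 fit, C1q being lowest in lung. The unnamed cluster 18 was not part of these classes. C1qa stood at 6844, 5966, 7219 and 9131 in brain, 2749, 5633 and 4219 in the first 3 liver samples, 3084, 6580.2 and 949 in the first 3 bone samples and 30.1, 50.7, 8.76 and 0 in lung. Lung lay below every sample of the other tissues, as for 2.25% of genes with at least 10 UMIs. Brain exceeded lung by 8.19, 8.17 and 8.29 on the log2 scale for C1qa, C1qb and C1qc (SE 0.96, 0.78 and 0.88; adjusted p = 8.7e-06, 1.44e-06 and 3.71e-06), with 37.4% of 9142 genes called. Liver exceeded lung by 7.36, 6.96 and 7.58 (20.7% of genes called), and bone exceeded lung by 7.03, 6.27 and 7.06 (18.4%). These values set microglia-like and other macrophage-like cells against mostly alveolar macrophage-like cells, whose level could not be told apart from background RNA. How far the size of the differences depends on that background was not tested. With clusters made with the C1q genes the differences for C1qa, C1qb and C1qc were smaller, 5.46, 5.38 and 5.71 for brain (39.5% of genes called), 4.81, 4.49 and 5.17 for liver (22.8%) and 4.85, 4.15 and 5.04 for bone (18%), and all stayed called. Brain, liver and bone did not differ from each other at the threshold for any member (12.4%, 1.29% and 15.2% of genes called in bone against brain, bone against liver and brain against liver), the nearest being C1qb in bone against brain (-1.90, adjusted p = 0.0693; -2.29 with the replicate block, adjusted p = 0.0376, 11.5% of genes called).

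No difference in the share of a chain between tissues or sorts passed the adjusted test. Among samples with at least 100 C1q UMIs, C1qa made up 46.0% ± 3.38 of C1q UMIs in positive bone, 41.8% ± 1.40 in brain, 41.6% ± 3.26 in liver (n = 3) and 36.5% ± 2.29 in lung, and 31.4% ± 2.40 in positive IIA bone, where another library chemistry was used. C1qb went the other way, with 30.8% for bone, 34.4% for brain, 32.8% for liver and 40.8% for lung. Of 33 exact permutation tests of chain shares none passed after adjustment, the smallest adjusted value being 0.145. A comparison of 4 against 4 samples cannot go below an exact p of 0.0286 and 3 against 4 not below 0.0571. Bone minus lung (9.48 points for C1qa, -10.0 for C1qb) and brain minus lung (5.30 and -6.37 points) were at that smallest p before adjustment. By cluster, C1qa took 50.1% ± 5.69 in Vcam1-led cluster 23, 43.5% ± 1.25 in cluster 19, 42.3% ± 2.38 in cluster 35, 41.7% ± 0.927 in microglia-like cluster 37 and 33.3% ± 5.83 in cluster 18. C1qb took 24.8%, 29.8%, 35.0% and 44.0% in clusters 23, 19, 37 and 18. UMI tags of different genes are captured with different efficiency, so these shares do not give the ratio of transcripts in a cell.

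**Figure D5:**
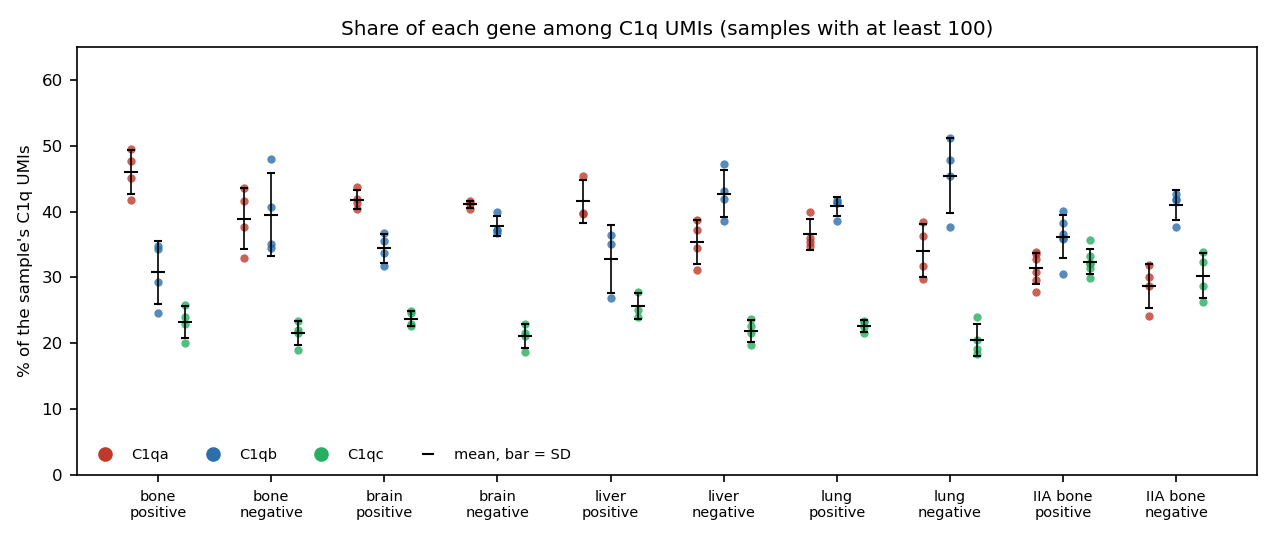
Percent of C1q UMIs from C1qa, C1qb and C1qc in each sample with at least 100 C1q UMIs, by group. Each point is a sample, and bars give the mean and SD. C1qa lies near 41.8% in positive brain and near 36.5% in positive lung, and no difference passed the adjusted test.

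The genes most like the members were sought over 202 sums of 1 class in 1 intracardiac sample, among 12744 genes, by Pearson correlation of log2(CPM + 1) with the mean of the members. They included C3ar1 (0.85), the receptor of the complement fragment C3a, then Abcc3, Adap2, Cd163, Ms4a7, Aif1, Rab3il1, Kcnk13 and Slc7a8 (0.77). Cd163 is the haemoglobin scavenger receptor. Over 74 IIA sums and 11531 genes they were Itga9 (0.86), Mertk, Hpgds, Ms4a7, Cxcl16, Gm10134, Mrc1, Arhgap22, Zmynd15 and Hmox1 (0.79), with Mertk a receptor for dying cells. Ms4a7 was in both lists. These are descriptions over sums that share libraries and depth.

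The rest of the complement system was described with a list of 49 genes. Of these (proteases and inhibitor of C1, classical, lectin, alternative and terminal components, regulators and receptors), 30, 26 and 30 could be tested over all cells of bone, brain and liver. In bone and liver edgeR called no gene at all, and in brain it called 0 of the 26 beside 3.06% of all genes. By role, the median log2 fold changes ran from -0.66 to 2.53 in brain, from -0.33 to 1.92 in bone and from 0.27 to 3.18 in liver. In lung 7 of 28 rose and 1 fell, 28.6% of those tested beside 18.3% of all genes, among them the receptor chain Itgax (2.87, SE 0.42), the alternative pathway protease factor B, Cfb (2.47, SE 0.37), the scavenger receptor Cd36 (3.37, SE 0.55) and Lair1 (1.07, SE 0.23), a receptor that binds C1q. In IIA bone 10 of 27 rose and 8 fell, 66.7% beside 50.2% of all genes, and Calr rose by 1.72, C1qbp by 1.12, Clu by 3.05 and the lectin pathway ficolin Fcna by 5.09. The list's median log2 fold change was 0.32, 0.34, 0.90, 0.53 and 0.71 in bone, brain, liver, lung and IIA bone, beside 0.01, -0.03, 0.02, -0.04 and 0.08 over all genes tested.

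Within phagocytes, list genes were called in both directions in brain, lung and IIA bone, and only higher in liver and intracardiac bone. In brain 7 of 22 rose and 4 fell, 50% beside 39.9% of all genes. Among them C3ar1 (3.52) rose, and C3 (-2.97), the central component, and the receptor Cd93 (-1.97) fell. In liver 5 of 25 rose and 0 fell, 20% beside 3% of all genes, with C4b at 3.08, Cd36 at 2.88, the decay accelerating regulator Cd55 at 2.41 and Cfb at 2.34. In bone Cd55 (3.79) was the 1 of 21 that rose, 4.76% beside 0.511%. In lung 7 of 20 rose and 8 fell, 75% beside 47.1%, with Itgax (3.47) and Cd36 (2.75) higher and Cd93 (-2.83) and Itgam (-2.86) lower. In IIA bone 12 of 21 rose and 1 fell, 61.9% beside 28.8%, including Fcna (6.96), Cd36 (3.79), Itgax (1.96) and properdin, Cfp (0.96). Between macrophage classes of positive samples, C3ar1 was higher in brain than in lung (7.48), while C6 and the C3b receptor Vsig4 were lower in brain than in liver (-7.97 and -6.72), 15 of 25 and 9 of 25 genes being called in these comparisons, beside 37.4% and 15.2% of all genes. In the intracardiac monocytes the edgeR fits with the filter on low counts and no block called no gene at all, so none of the 17 to 19 list genes tested there could be called.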

How the data were processed

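The authors deposited raw UMI counts per gene and cell barcode, 1 matrix for each of 32 intracardiac samples (cellranger 6.1.2 per the file headers, 3′ tags) and 1 pooled IIA bone matrix (cellranger 7.1.0 per the file headers, 5′ tags). The submitters' processing notes name Cell Ranger, Seurat and the build mm10. Hashtags of the pooled matrix and those in the deposited description have different names and were matched by number. A cell was assigned to its highest hashtag if that had 10 or more counts and 3 or more times those of the next.

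The filters were a minimum of 500 UMIs and 200 genes per cell and a maximum of 15% mitochondrial UMIs, and no doublets were removed. They were clustered with scanpy 1.11.5 (scaled to 10000, 2000 variable genes without the C1q genes, 30 principal components, 15 neighbours, Leiden resolution 1). Names came from 28 marker lists with 325 genes, and unnamed clusters held 17.6% of intracardiac and 11.4% of IIA cells. Some clusters were compared by number. Counts were summed per sample and population with at least 10 cells and tested with edgeR 4.0.16 in R 4.3.3 (quasi-likelihood, TMM, filterByExpr), with Benjamini-Hochberg adjustment over all genes tested. All 3 members passed the filter on low counts in every main comparison, while C1qb or C1qc was filtered out of some fits of brain and lung monocytes that left out a sample. DESeq2 1.42.0, other filters, thinning, clustering, doublets, the replicate block and left-out samples were alternatives. Shares were compared by two-sided exact permutation tests, and the shares by group and by cluster come from separate random thinnings. Scripts were tested on simulated data.

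Replicate numbers pair the samples. The 8 intracardiac samples of a number list the same multiplexing tags in their feature files, and an IIA number marks 1 injection. Numbers 3 and 4 list the same tags as each other. Deviations of same-numbered samples from their group means correlated at 0.433 to 0.701 in bone, 0.213 to 0.618 in brain, 0.240 to 0.541 in liver, -0.117 to 0.517 in lung and 0.0721 to 0.529 in IIA bone. Samples of different numbers reached at most 0.190, 0.428, 0.215, 0.195 and 0.492 in turn. Each positive sample correlated best with its own number in bone, brain and liver, but only 3 of 4 did in lung and 4 of 6 in IIA bone. No source states a model with a block, so the main fits hold none, and blocked values are given where they change a call.

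The named genes are the members, at most 4 genes of a 49-gene complement list per comparison (those with the smallest adjusted p under 0.05), and the 10 genes most correlated with the members, apart from some that are not reported here. The members and lists were chosen with earlier results of these data known.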

Additional observations from a re-analysis of the deposited data

Results flagged for a closer look

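Of 56 groups of sample values examined for a sample far from the others, 5 held one, where chance gives about 1 in 20. Liver positive replicate 2 had 10749.8 CPM of C1q over all kept cells, against 1478, 943 and 14.5 in the other positive liver samples. Bone positive replicate 2 had 9453 CPM of C1q in mononuclear phagocytes, against 1739.7, 401 and 311.8. Both are from pool 2. For the share of C1qb among C1q UMIs, brain negative replicate 1 stood at 40.0% (36.7% to 37.3% in the others), lung positive replicate 1 at 38.6% (41.3% to 41.8%) and IIA negative injection 2 at 37.6%, beside 41.8% to 42.6% in the other IIA negative samples with at least 100 C1q UMIs.

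The biotin difference of lung phagocytes differed from the mean of the other 3 tissues by -5.63 for C1qa, -5.54 for C1qb and -5.86 for C1qc on the log2 scale, all 3 past the threshold in the edgeR test of that difference (14.2% of genes called). With clusters made with the C1q genes it was -3.62 for C1qa, -3.26 for C1qb and -3.87 for C1qc. Alveolar macrophage-like cells, which had little C1q, made up most of the positive lung phagocytes. Their part in this difference was not tested.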

How the results depend on the processing

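The cause of the changes listed here was not tested. Counts are of the 3 members called by edgeR, positive against negative, unless another tool is named. Over all cells, brain gave 0 to 3 and lung 0 to 3 when 1 sample was left out, and brain gave 0 without pool 2. The share of all genes called stands in parentheses where it is given. In bone phagocytes, with 0 in the main analysis (0.511%), DESeq2 gave 3 (1.81%), no filter 3 (3.89%), the replicate block 2 (1.13%), clusters made with the C1q genes 2 (1.28%), removal of the top doublet scores 2 (1.33%), addition of cluster 18 to the phagocytes 2 (2.33%), the fit without pool 2 gave 1 (0.408%), and leave-one-out 0 to 3. In liver phagocytes, with 0 in the main analysis (3%), DESeq2 (8.31%), no filter (6.15%), the replicate block (5.4%) and clusters made with the C1q genes (4.77%) each gave 3, and leave-one-out 0 to 3. Macrophage classes without monocytes gave 0 in brain with either clustering. Those of lung are not counted here, as the main fit held 1 negative sample. IIA macrophage classes of clusters made with the C1q genes gave 1 (20.6%). Lung phagocytes gave 0 with clusters made with the C1q genes (46.8%) and 0 to 1 under leave-one-out. In monocytes, no filter gave 2 in bone (0.306%) and 1 in lung (0.448%), and the replicate block 1 in liver (0.534%) and 1 in lung (3.41%). Bone against brain macrophages gave 1 with DESeq2 (13.7%) and 1 with the replicate block (11.5%), and the brain contrast of phagocytes against other tissues gave 1 with the replicate block (17.3%). The share of C1q cells passed in brain and lung with thinning to 1000 UMIs (differences of 48.8 and 4.20 points, adjusted exact p = 0.0476) and with at least 5 UMIs (47.6 and 3.84), and with the replicate block the IIA share (15.3) and that of IIA cluster 0 were tested over too few pairs to pass. Beyond the calls named here, the replicate block changed none.

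Signs reversed for values that were mostly not called. For the tissue contrast over all cells, liver C1qa and C1qc turned to -0.50 and -0.54 with the replicate block and to -1.21 and -1.33 without pool 2. Leave-one-out gave -1.72 to 1.08, -1.71 to 0.42 and -1.76 to 0.99 in liver and -0.99 to 2.10, -0.76 to 1.49 and -0.90 to 1.97 in bone for C1qa, C1qb and C1qc. Clusters made with the C1q genes turned C1qa of bone against liver macrophages to 0.034 (leave-one-out -1.12 to 0.14), C1qa and C1qc of lung monocytes to 0.45 and 0.27, and C1qa of lung phagocytes to 0.31 (leave-one-out -1.67 to 0.073). Liver monocytes gave -1.15 to 1.70, -2.11 to 1.62 and -1.20 to 2.19 under leave-one-out. C1qb of liver phagocytes was -0.15 without monocytes, and C1qa, C1qb and C1qc of lung phagocytes were 1.62, 1.30 and 1.51 with cluster 18. Among chain shares of positive samples, in points, mononuclear phagocytes alone gave 2.52 for C1qc in bone minus brain, -1.99 for C1qa in brain minus liver, -2.30 for C1qa and 0.50 for C1qb in brain minus lung, and -0.32 for C1qa in liver minus lung, and at least 500 C1q UMIs gave 1.18 for C1qc in bone minus brain. Leave-one-out gave -1.38 to 0.53 for C1qc in bone minus brain, -4.96 to 0.027 for C1qb in bone minus liver, -0.31 to 1.60 for C1qc in bone minus lung, and -0.75 to 2.11 for C1qa and -1.29 to 3.47 for C1qb in brain minus liver. The alternatives on pool 2, cluster 18, the phagocyte contrast and the macrophage and IIA clusters made with the C1q genes were chosen after seeing the data. In all, 2103 single values kept their direction and call, 59 lost a call, 45 gained one and 47 reversed, while of the counts and shares of a comparison 635 stayed, 47 moved, 4 gained a call and 1 lost one. Intracardiac negative samples held few cells of the macrophage classes, which limits comparisons within them.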

Other observations

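In 3 clusters of lymphoid or endothelial-like cells, C1q passed 1000 CPM in a single intracardiac sample. The T cell-like cluster 25, led by Gzmk, had 2402 CPM of C1q in brain positive replicate 2 (13 cells, 129 UMIs) and 222 or less in every other sample with at least 10 such cells. The T cell-like cluster 7, led by Icos and Ctla4, had 1429 in liver positive replicate 1 (11 cells, 89 UMIs) and a median over samples of 18.7. The endothelial-like cluster 36, led by Clec4g, had 1157 in liver positive replicate 2 (21 cells) and 128 or less in the others. Among phagocytes, the monocyte-like cluster 16 was high in 3 samples. It reached 5123 in liver negative replicate 3 (49 cells), 3443 in liver positive replicate 3 (10 cells) and 2733 in bone positive replicate 1 (56 cells), with a median over samples of 197.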
